A study of Mus musculus with 14 samples.

Results

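Genes of the endoplasmic reticulum (ER) that move proteins into the secretory pathway, fold them, destroy failed products and signal stress were compared in mouse colon after gavage with the gut bacterium Bacteroides thetaiotaomicron and after gavage with phosphate-buffered saline (PBS). The set holds 39 named genes of the 21898 in the count table, chosen by name: 10 for translocation, 15 for folding, 7 for degradation and 7 for stress signalling. RNA was sequenced from 7 colon samples of the B. thetaiotaomicron group and 7 of the PBS group, all of genotype wt, with a library kit for mRNA. The sources used here give no age, sex, strain or region of colon. Most titles call the samples biological replicates but do not say that each came from 1 animal. The p-values therefore rest on a spread between samples that may not be a spread between animals.

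Proteins bound for secretion or for membranes enter the ER through the Sec61 channel, lose their signal peptide, receive sugars and disulfide bonds and fold with the help of chaperones. Chains that fail to fold are pulled back to the cytosol and degraded. An overloaded ER is sensed by the kinases IRE1 and PERK and by the membrane-bound factor ATF6, and the resulting unfolded protein response raises transcription of chaperone and degradation genes. In colon the pathway is known for its load in goblet cells, which secrete mucin, and in plasma cells of the lamina propria, which secrete IgA.

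Library totals were 13299893 to 16014500 counts in the B. thetaiotaomicron group and 13150140 to 16781708 in the PBS group, and the biological coefficient of variation was 0.21. Along the first principal component, which held 45.9% of the variance, PBS replicates 3, 5 and 1 and B. thetaiotaomicron replicate 3 lay farthest to one side. Results that rest on these 4 libraries are also given for the 10 others. Colon markers were present in every group: the summed level of 8 epithelial markers was 12809.5 to 13989.8 CPM (counts scaled to a common library total) in the B. thetaiotaomicron group and 11847.9 to 13529.9 CPM in the PBS group. Hoxb13, a marker of the distal colon, was at 4.37 to 375 CPM in the B. thetaiotaomicron group and 0.195 to 469 CPM in the PBS group, so pieces differed in this marker within both groups.

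No ER gene was called between the groups. Of the 39 members, 38 passed the filter on low counts, and 0 of these 38 reached an adjusted p of 0.05 with edgeR's quasi-likelihood test over all 14070 genes tested, where 0.249% of genes were called. With DESeq2, 0 of 38 members were called, against 3.18% of all genes. Unadjusted p was under 0.05 with edgeR for 4 members in the direction of higher levels after B. thetaiotaomicron (Sec61b, Hsp90b1, Pdia3 and Pdia6), against 7.98% of all genes in that direction. It was under 0.05 for 2 members in the other direction (Dnajb9 and Herpud1), against 7.26% of all genes. Leaving out 1 library moved the count in the first direction to 9 without PBS replicate 2, 2 without PBS replicate 3, 2 without B. thetaiotaomicron replicate 1 and 10 without B. thetaiotaomicron replicate 3. The count in the second direction was 0 without PBS replicate 1, PBS replicate 5 or B. thetaiotaomicron replicate 2, and 1 without B. thetaiotaomicron replicate 4 or 5. Over all genes tested, 2145 had an unadjusted p under 0.05 in either direction with all 14 libraries. Leaving out 1 library moved this number as well, from 1684 without B. thetaiotaomicron replicate 4 to 2626 without PBS replicate 2. The 2 groups overlapped in CPM for every one of the 38 members, where 0.54% of all genes had groups that did not overlap.

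The fitted log2 fold changes, given throughout as B. thetaiotaomicron over PBS, were positive for 29 of 38 members with a median of 0.10. Over all genes tested they were positive for 6495 of 14070 with a median of -0.01. By role, 10 of 10 translocation genes, 12 of 15 folding genes, 5 of 7 degradation genes and 2 of 6 tested stress signalling genes were positive. The class medians were 0.11, 0.16, 0.00 and -0.05 in that order. The 39 genes together took 0.676 to 0.903% of all counts in the B. thetaiotaomicron libraries (median 0.831%) and 0.636 to 0.856% in the PBS libraries (median 0.737%). These ranges overlapped over most of their length. In bulk tissue, a change in the share of a cell type and a change in RNA per cell cannot be told apart.

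**Figure D1:**
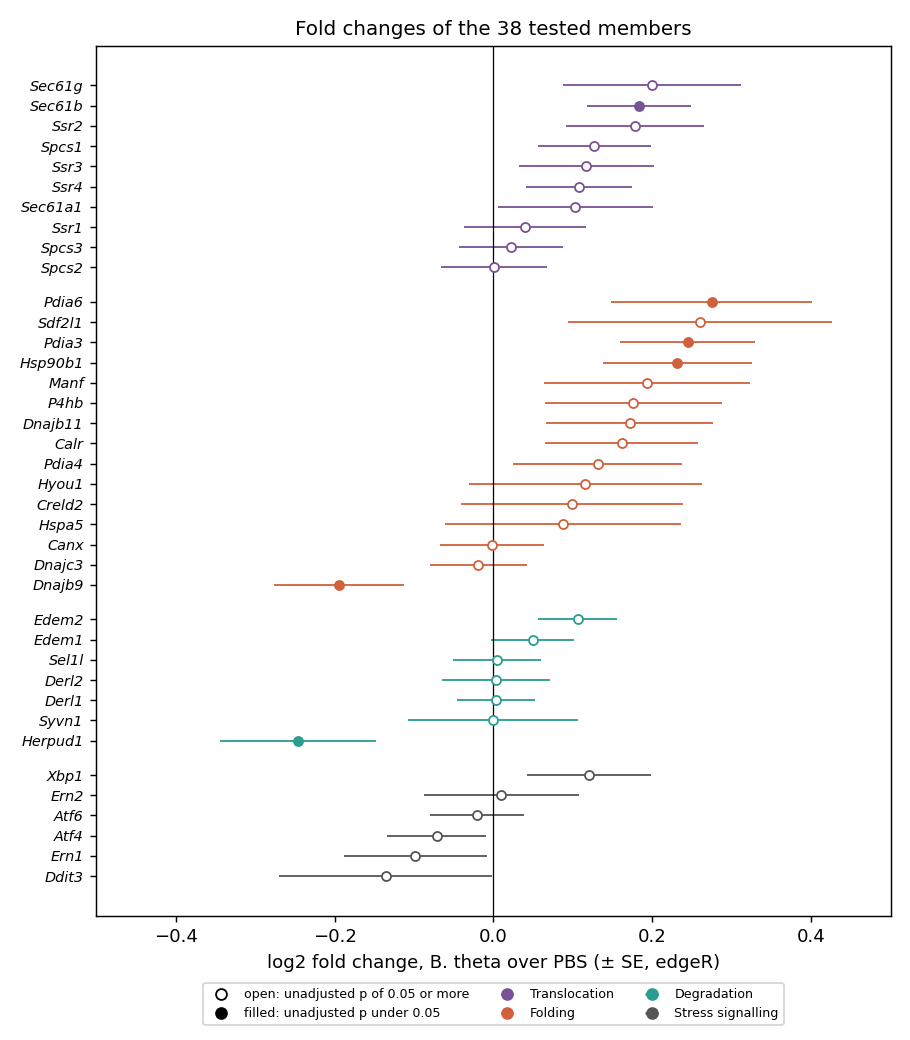
Log2 fold change of the 38 tested ER genes, B. thetaiotaomicron over PBS, with standard errors, grouped by role. Filled points mark the 6 genes with an unadjusted edgeR p under 0.05, and none of the 38 reached an adjusted p of 0.05.

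Levels per transcript length spanned a wide range. On the FPKM scale the highest members were the disulfide isomerase gene P4hb, at 280 ± 43.5 in the B. thetaiotaomicron group and 247 ± 39.3 in the PBS group (mean ± SD, n = 7 each), and its relative Pdia3, at 278 ± 24.4 and 233 ± 28.8 in the same order of groups. Next came Calr, which encodes the lectin chaperone calreticulin, at 249 ± 31.6 FPKM after B. thetaiotaomicron and 221 ± 26.8 FPKM after PBS. P4hb and Pdia3 did not differ from each other beyond their spread in either group. The lowest were Ddit3, at 3.62 ± 0.61 and 3.95 ± 0.59 FPKM, and Trib3, at 0.349 ± 0.137 FPKM in the B. thetaiotaomicron group and 0.323 ± 0.173 FPKM in the PBS group. Both encode factors of the late, pro-apoptotic arm of the stress response. Trib3 had 4 to 18 counts per library and was the member that failed the filter on low counts.

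**Figure D2:**
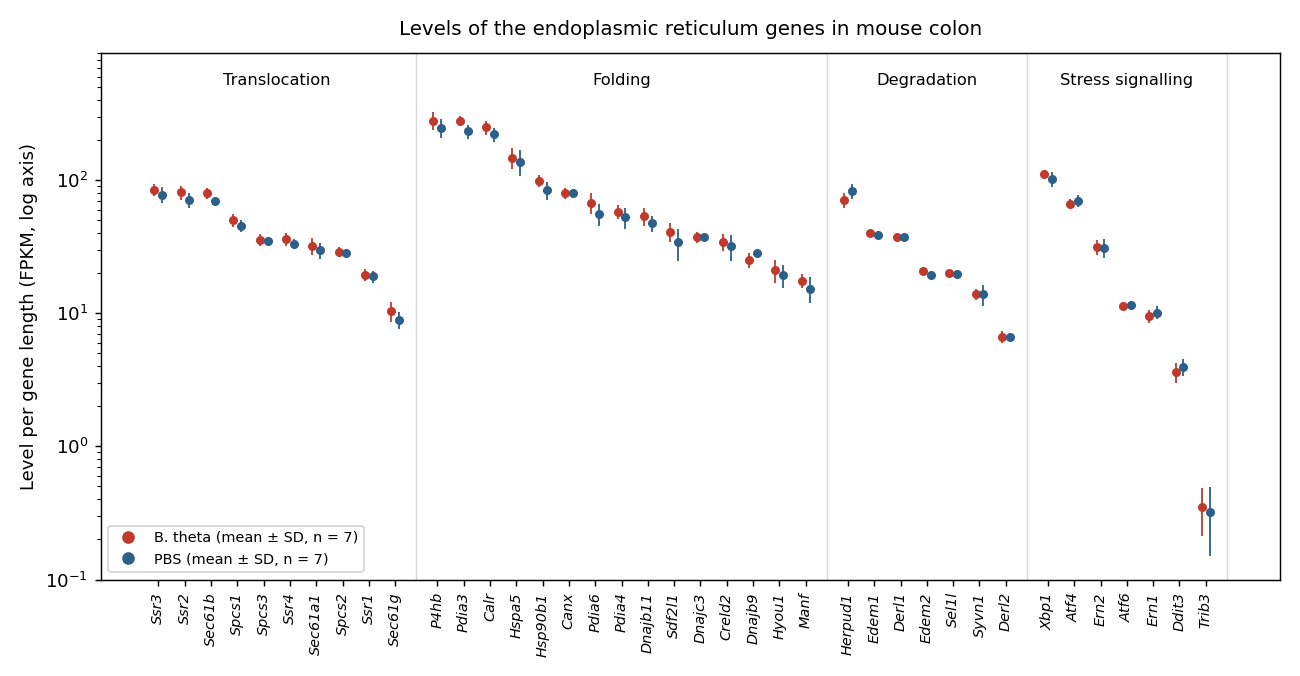
Level of each ER gene in FPKM on a log axis, by role, as the mean and SD of 7 B. thetaiotaomicron and 7 PBS colon samples. Folding genes such as P4hb, Pdia3 and Calr sit highest, and Trib3 sits lowest, under 1 FPKM in both groups.

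Among translocation genes Sec61b had the smallest p. It encodes a small subunit of the Sec61 channel (ENSMUSG00000053317, chr4:47474658-47483242 on GRCm38). Sec61b was at 88.4, 102 and 113 CPM (lowest, median and highest) in the B. thetaiotaomicron group, against 81.2, 87.7 and 102 CPM in the PBS group. All 7 B. thetaiotaomicron samples lay above the PBS median, and the groups overlapped. Its fold change was 1.14 (95% interval 1.03 to 1.25), a log2 fold change of 0.18 ± 0.07 (SE) with an edgeR adjusted p of 0.195. The channel's pore subunit Sec61a1 was at 159.8, 221 and 247 CPM after B. thetaiotaomicron, against 166, 190.3 and 245 CPM after PBS. Its lowest and highest samples both belonged to the B. thetaiotaomicron group, and its log2 fold change was 0.10 ± 0.10 (edgeR adjusted p = 0.660). The third subunit, Sec61g, was at 18.3, 26.3 and 31.7 CPM in the B. thetaiotaomicron group and 19.3, 21.3 and 28.5 CPM in the PBS group. Here 6 of 7 B. thetaiotaomicron samples lay above the PBS median (log2 fold change 0.20 ± 0.11, edgeR adjusted p = 0.415).

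Ssr2 encodes a subunit of the translocon-associated protein complex, which sits beside the channel. It was at 125, 156 and 173 CPM in the B. thetaiotaomicron group and 111, 134 and 159 CPM in the PBS group, with a log2 fold change of 0.18 ± 0.09 (edgeR adjusted p = 0.347). The other subunits Ssr1, Ssr3 and Ssr4 had log2 fold changes of 0.04, 0.12 and 0.11. Of the signal peptidase subunits, which cut off the signal peptide, Spcs1 was at 65.0, 76.4 and 88.9 CPM after B. thetaiotaomicron and 62.5, 69.7 and 80.3 CPM after PBS. Its log2 fold change was 0.13 ± 0.07 (edgeR adjusted p = 0.412), and those of Spcs2 and Spcs3 were 0.00 and 0.02. For every translocation gene the ranges of the groups overlapped.

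Among the folding genes, Pdia3 had the smallest p of all members. Pdia3 encodes ERp57, the disulfide isomerase that works with calreticulin and calnexin on glycoproteins (ENSMUSG00000027248, chr2:121413775-121438687 on GRCm38). It was at 761, 868 and 988 CPM in the B. thetaiotaomicron group, against 570.5, 753 and 844 CPM in the PBS group. All 7 B. thetaiotaomicron samples exceeded the PBS median, and the lowest of them lay inside the PBS range. The fold change was 1.18 (95% interval 1.04 to 1.34), with a log2 fold change of 0.24 ± 0.09, an edgeR adjusted p of 0.188 and an unadjusted two-sided exact permutation p of 0.0128.

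Hsp90b1 encodes GRP94, the HSP90 of the ER. It was at 355, 395 and 462 CPM in the B. thetaiotaomicron group and 275, 350.04 and 409 CPM in the PBS group. Again 7 of 7 B. thetaiotaomicron samples lay above the PBS median (log2 fold change 0.23 ± 0.09, edgeR adjusted p = 0.255). The isomerase gene Pdia6 was at 182, 258 and 320.3 CPM after B. thetaiotaomicron and 163, 201 and 266 CPM after PBS, with 6 of 7 above the PBS median (log2 fold change 0.27 ± 0.13, edgeR adjusted p = 0.319). Calr was at 582, 731 and 846 CPM in the B. thetaiotaomicron group and 498.5, 651 and 721 CPM in the PBS group (log2 fold change 0.16 ± 0.10, edgeR adjusted p = 0.449). Dnajb11 encodes ERdj3, which hands clients to BiP. It was at 132, 172 and 210.02 CPM after B. thetaiotaomicron and 117, 151 and 179 CPM after PBS (log2 fold change 0.17 ± 0.10, edgeR adjusted p = 0.461).

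Hspa5 encodes BiP, the HSP70 chaperone of the ER and the usual readout of the unfolded protein response (ENSMUSG00000026864, chr2:34771970-34777547 on GRCm38). It was at 441, 650.5 and 738 CPM in the B. thetaiotaomicron group, against 412, 599.8 and 779 CPM in the PBS group. The lowest and the highest of the 14 samples were both PBS samples, and 4 of 7 B. thetaiotaomicron samples lay above the PBS median. The fold change was 1.06 with a 95% interval of 0.854 to 1.32 (edgeR adjusted p = 0.823), an interval that spans equality. The log2 fold change of 0.09 ranged from 0.02 without PBS replicate 3 to 0.17 without PBS replicate 6 when 1 library was left out, and was 0.01 with the mean of the goblet markers as a covariate. Among the genes that act with BiP, the nucleotide exchange factor Hyou1 and the co-chaperones Sdf2l1 and Dnajc3 had log2 fold changes of 0.12, 0.26 and -0.02. Of the remaining folding genes, P4hb was at 0.18, Manf at 0.19, Pdia4 at 0.13, Creld2 at 0.10 and the membrane lectin Canx at 0.00 on the log2 scale of fold change.

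Dnajb9 went the other way from most folding genes. It encodes ERdj4, a co-chaperone of BiP that is also known to hold IRE1 inactive. Dnajb9 was at 50.7, 64.3 and 73.6 CPM in the B. thetaiotaomicron group and 65.5, 71.2 and 86.8 CPM in the PBS group, and 1 of 7 B. thetaiotaomicron samples lay above the PBS median. Its fold change was 0.874 (95% interval 0.774 to 0.986), a log2 fold change of -0.19 ± 0.08 with an edgeR adjusted p of 0.277.

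**Figure D3:**
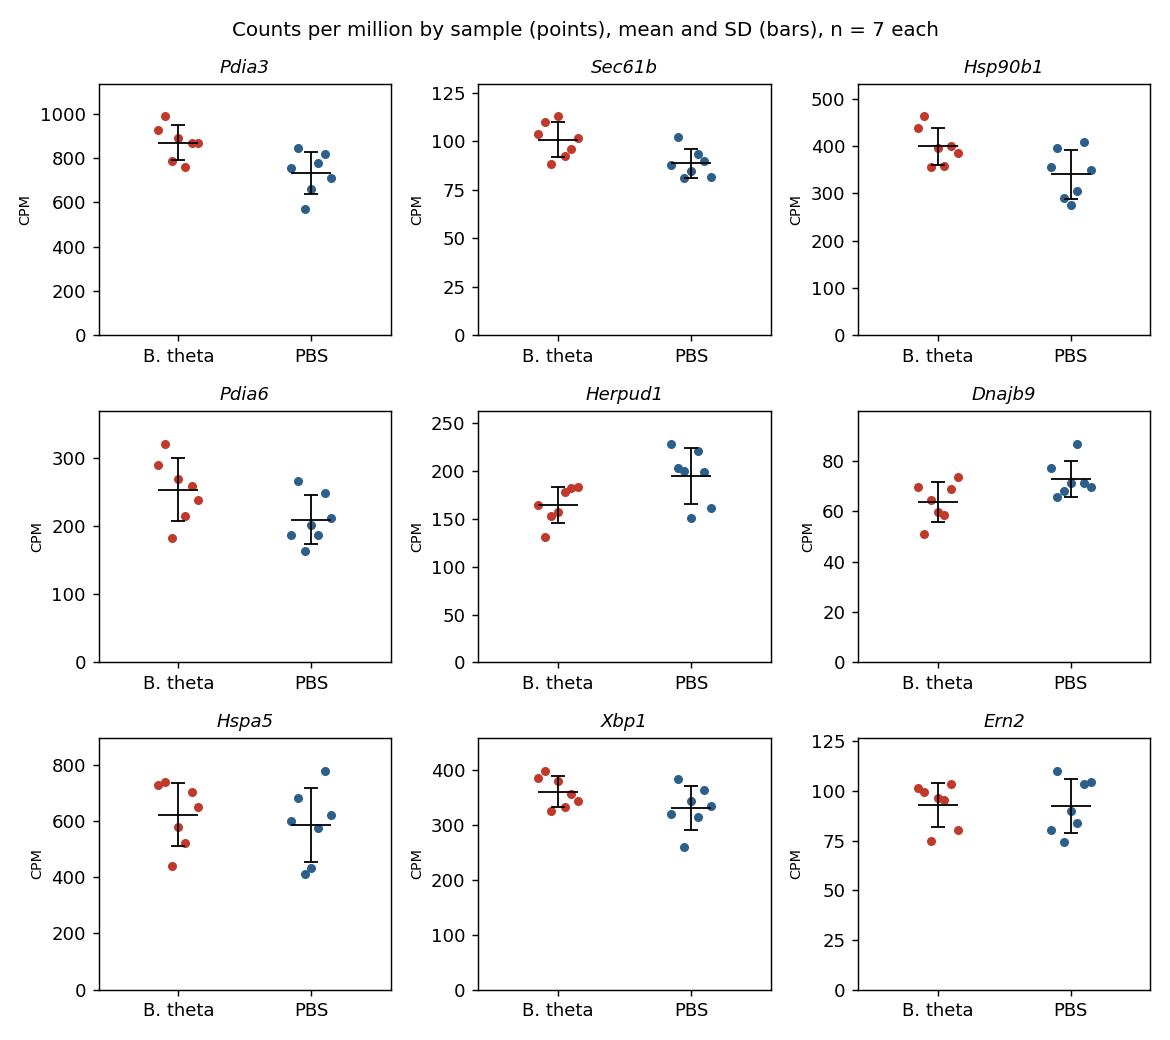
CPM of 9 ER genes in each of the 7 B. thetaiotaomicron and 7 PBS samples. Pdia3, Sec61b and Hsp90b1 have all 7 B. thetaiotaomicron samples above the PBS median, Herpud1 has 0 of 7, and the groups overlap for all 9.

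Among the 7 degradation genes, Herpud1 had the smallest p. Herpud1 encodes a membrane protein of the HRD1 ubiquitin ligase complex and is itself a known target of ER stress (ENSMUSG00000031770, chr8:94386438-94395377 on GRCm38). It was at 131, 164 and 183 CPM in the B. thetaiotaomicron group, against 151, 199.9 and 228 CPM in the PBS group. None of the 7 B. thetaiotaomicron samples exceeded the PBS median, and the groups overlapped between 151 and 183 CPM. The fold change was 0.843 (95% interval 0.730 to 0.974), with a log2 fold change of -0.25 ± 0.10, an edgeR adjusted p of 0.247 and an exact permutation p of 0.0455. Over the 10 libraries that lay together on the first principal component, the log2 fold change of Herpud1 was -0.10 ± 0.11. In this reduced set 0 of 39 members were called, where 0% of 14230 genes were called, and 2 members, Sec61b and Pdia3, had an unadjusted edgeR p under 0.05, against 10.4% of all genes.

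Edem2, which trims mannose from misfolded glycoproteins, was at 63.5, 72.8 and 77.1 CPM in the B. thetaiotaomicron group and 61.4, 67.7 and 70.7 CPM in the PBS group (log2 fold change 0.11 ± 0.05, edgeR adjusted p = 0.328). Sel1l, the adaptor of the HRD1 ligase, was at 150.3, 171 and 184 CPM after B. thetaiotaomicron and 153, 169 and 191 CPM after PBS. Its log2 fold change was 0.00 ± 0.06, and the 95% interval of its fold change was 0.925 to 1.09. Derl1, a channel component, lay above the PBS median in 7 of 7 B. thetaiotaomicron samples, yet its log2 fold change was 0.00. Its B. thetaiotaomicron samples ran from 121 to 135 CPM inside a PBS range of 117 to 141 CPM. Edem1 was at 0.05, and Derl2 and Syvn1, the ligase itself, were both at 0.00 on the log2 scale of fold change.

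The 6 tested stress signalling genes had log2 fold changes between -0.14 and 0.12. Xbp1, the transcription factor whose mRNA is spliced by IRE1, was at 325, 355 and 398 CPM in the B. thetaiotaomicron group, against 259, 333 and 383 CPM in the PBS group. The fold change was 1.09 (95% interval 0.969 to 1.22, edgeR adjusted p = 0.490). Counts per gene do not separate spliced from unspliced Xbp1 mRNA. Ern1, which encodes the widely expressed IRE1, was at 64.8, 76.4 and 90.4 CPM after B. thetaiotaomicron and 62.4, 86.5 and 93.0 CPM after PBS (log2 fold change -0.10 ± 0.09, edgeR adjusted p = 0.642). Ern2, which encodes the IRE1 form of mucosal epithelium, was at 74.8, 96.8 and 104 CPM in the B. thetaiotaomicron group and 74.5, 89.9 and 110.2 CPM in the PBS group (log2 fold change 0.01 ± 0.10, edgeR adjusted p = 0.977). Per transcript length, Ern2 averaged 31.6 ± 4.01 FPKM after B. thetaiotaomicron and 31.2 ± 4.98 FPKM after PBS, and Ern1 averaged 9.52 ± 1.07 and 10.1 ± 1.13 FPKM in the same order. The epithelial form was thus the more abundant one per length in both groups, with ranges that stood apart.

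Atf4, the factor translated when PERK slows protein synthesis, was at 132, 158 and 166 CPM in the B. thetaiotaomicron group, against 153, 156 and 187 CPM in the PBS group. Its log2 fold change was -0.07 ± 0.06 (edgeR adjusted p = 0.627). Ddit3, which encodes CHOP, was at 4.27, 6.23 and 7.44 CPM after B. thetaiotaomicron and 5.60, 6.58 and 8.82 CPM after PBS (log2 fold change -0.14 ± 0.13, edgeR adjusted p = 0.672). Leaving out 1 library gave -0.19 to -0.06 for Ddit3 and -0.09 to -0.03 for Atf4. Atf6 was at -0.02 on the log2 scale of fold change. For all of these the groups overlapped, and a p that misses the threshold does not show that the levels were equal.

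Promoters were compared because many chaperone genes are known to carry the ER stress response element (ERSE), which ATF6 and XBP1 bind with the factor NF-Y. The RefSeq promoter table on GRCm38.p6 held windows for 31 of the 39 members, all but Sec61a1, Ssr2, Spcs3, Hyou1, Manf, Derl1, Ern2 and Atf6, and the 250 bases before each RefSeq start were searched on both strands. The ERSE, which is CCAAT and CCACG with any 9 bases between them, was found in 8 of these 31 members (25.8%), against 35 of 27025 genes (0.13%) in the whole table. Hsp90b1 held it at 2 places. Only exact matches to the fixed letters were counted, so absence here means no exact match within these 250 bases. The matches follow with 10 bases on either side, read on the strand where the element reads as written, with the fixed letters of the element in capitals.
Hspa5, chr2:34772015-34772053, plus strand: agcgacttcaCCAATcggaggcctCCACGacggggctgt
Hsp90b1, chr10:86705523-86705561, plus strand: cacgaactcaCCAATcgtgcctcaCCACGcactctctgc
Hsp90b1, chr10:86705628-86705666, minus strand: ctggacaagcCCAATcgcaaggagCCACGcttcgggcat
Calr, chr8:84847065-84847103, plus strand: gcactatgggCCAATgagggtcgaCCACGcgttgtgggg
Canx, chr11:50325790-50325828, minus strand: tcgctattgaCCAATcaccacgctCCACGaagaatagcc
Creld2, chr15:88819510-88819548, minus strand: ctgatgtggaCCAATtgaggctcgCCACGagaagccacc
Dnajc3, chr14:118937817-118937855, plus strand: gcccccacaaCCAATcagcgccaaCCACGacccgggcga
Pdia6, chr12:17266481-17266519, plus strand: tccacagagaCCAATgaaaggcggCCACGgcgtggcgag
Syvn1, chr19:6046522-6046560, plus strand: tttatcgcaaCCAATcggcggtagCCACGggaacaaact
The 9 bases between the CCAAT and CCACG parts differed from gene to gene.

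The element of Hspa5 lay 65 to 47 bases before the RefSeq start at 34772090. GENCODE M21 begins the gene 120 bases further upstream, so the element lies inside the gene span given above for Hspa5, and outside that span for the 7 other genes. The 150 bases upstream of Hspa5 are shown to place it, again with the element in capitals.
Hspa5 upstream, chr2:34771940-34772089, plus strand: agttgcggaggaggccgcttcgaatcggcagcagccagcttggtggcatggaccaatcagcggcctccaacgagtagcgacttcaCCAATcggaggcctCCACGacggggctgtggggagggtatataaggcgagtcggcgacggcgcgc

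Herpud1 held no ERSE in this window. It held the related ERSE-II, which is ATTGG and CCACG with any 1 base between them and was found in 1 of 31 members (3.23%) and in 10 of 27025 genes (0.037%), and the ATF4 element TTGCATCA, found in 1 of 31 members and in 248 genes (0.918%). Both are shown with the fixed letters in capitals. Whether they bear on the values of Herpud1 was not tested.
Herpud1 ERSE-II, chr8:94386367-94386397, plus strand: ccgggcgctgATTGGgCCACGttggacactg
Herpud1 ATF4 element, chr8:94386307-94386334, plus strand: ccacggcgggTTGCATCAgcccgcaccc
The XBP1 element TGACGTGG was found in 0 of 31 members and in 163 genes (0.603%). Its last 5 letters are the reverse complement of the CCACG part of the ERSE, so matches of both can overlap. A match is a description of the letters and says nothing of binding in these colons.

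The 8 genes with the ERSE differed in their fold changes. Hsp90b1 and Pdia6 stood at 0.23 and 0.27 on the log2 scale, Calr at 0.16, Creld2 and Hspa5 at 0.10 and 0.09, and Canx, Syvn1 and Dnajc3 between 0.00 and -0.02. Pdia3 and Sec61b, the members with the smallest p, held no exact match to any of the searched elements in their windows.

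Within the groups, the chaperone genes moved together from sample to sample. Over 14 samples, with the group mean removed, Hspa5 and Creld2 correlated at Pearson's r = 0.939 (permutation p = 1e-05, the smallest that 100000 resamples can give, 6e-05 after adjustment over 12 pairs) and Spearman's rho = 0.877 (permutation p = 0.0001). Within the B. thetaiotaomicron group r was 0.919 and within the PBS group 0.964. Without the 2 samples farthest from the Creld2 median r was 0.920, and over the 10 libraries it was 0.934. Hspa5 and Sdf2l1 correlated at r = 0.920 (permutation p = 1e-05, adjusted 6e-05) and rho = 0.890 (permutation p = 5e-05), with 0.927 when the 2 samples farthest from the Sdf2l1 median were left out and 0.900 over the 10 libraries. Herpud1 did not follow: with Hspa5 its r was 0.173 (permutation p = 0.552, adjusted 0.552) and its rho 0.0154 (permutation p = 0.963), with r = 0.140 when 2 samples were left out and 0.310 over the 10 libraries.

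**Figure D4:**
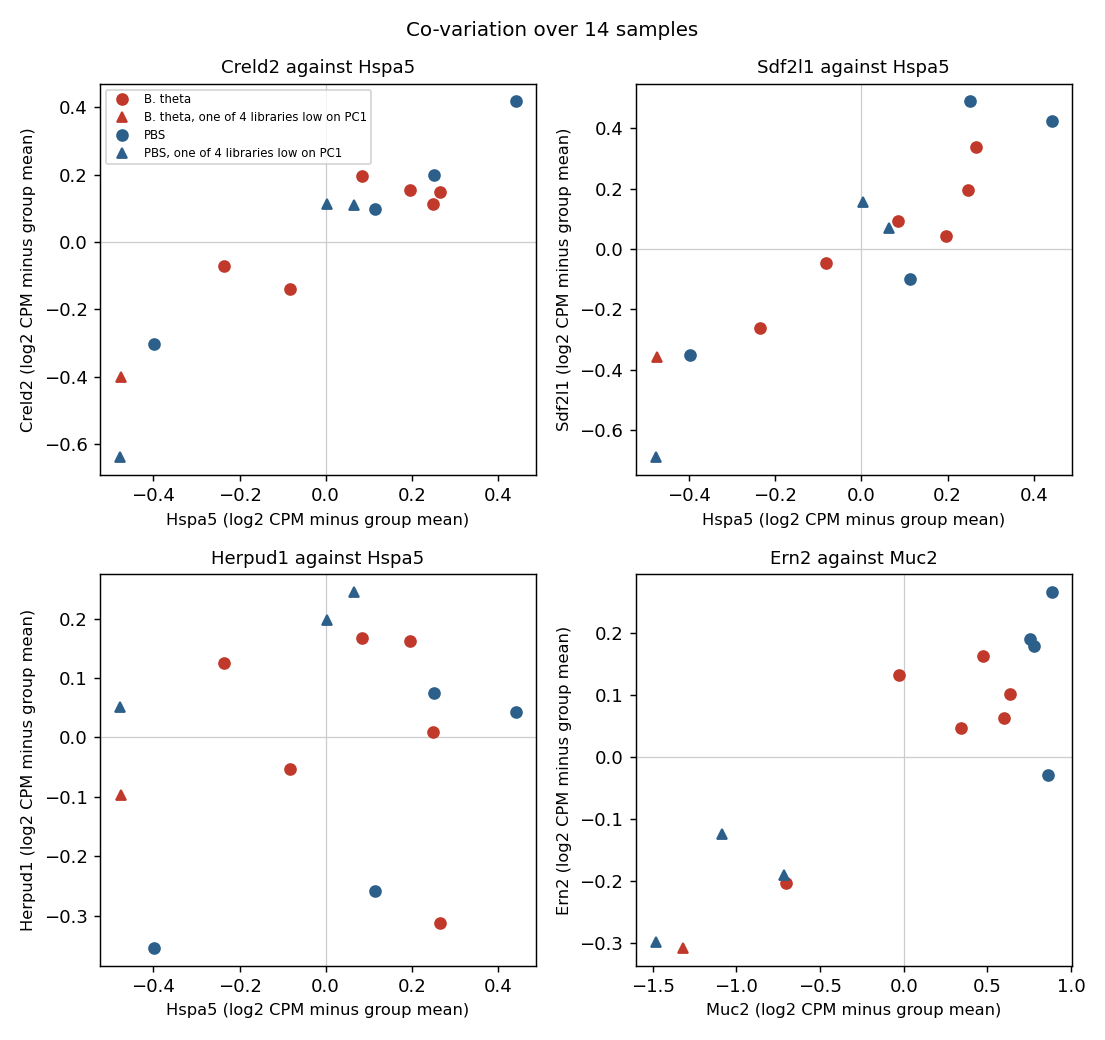
Deviation of log2 CPM from the group mean in the 14 samples: Creld2, Sdf2l1 and Herpud1 against Hspa5, and Ern2 against Muc2. Creld2 and Sdf2l1 vary along with Hspa5 (r = 0.939 and 0.920), Herpud1 does not (r = 0.173), and triangles mark the 4 libraries at one end of the first principal component.

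The same comparison of Hspa5 with each of the 37 other tested members was added after the data were seen and is given as a description. All values share the same libraries and scaling. Above r = 0.8 lay 13 of 37 genes, of which 11 were among the 14 other folding genes and 2 among the 10 translocation genes, with 0 of 7 degradation and 0 of 6 stress signalling genes. Over the 10 libraries 12 of 37 genes lay above 0.8, 9 of them folding genes. Of the 14069 other tested genes, members included, 0.931% lay above 0.8 over 14 libraries and 3.08% over 10. Hyou1 (r = 0.960) and Pdia4 (r = 0.951) followed Hspa5 most closely. Dnajb9 (r = 0.0378) and Edem2 (r = 0.0454) did not, and over the 10 libraries they were at 0.0295 and -0.0996. Ern1 did not follow over 14 libraries (r = 0.0684) but was at 0.684 over 10. Median r was 0.895 for folding, 0.632 for translocation, 0.581 for degradation and 0.282 for stress signalling genes. Over the 10 libraries these medians were 0.8455, 0.6065, 0.581 and 0.5415. The 7 other genes with the ERSE ran from 0.57 for Canx to 0.939 for Creld2 with a median of 0.886, and the 22 members with a promoter window and no ERSE had a median of 0.587. Role and element go together here, since 6 of those 7 are folding genes. Among folding genes alone the median was 0.895 for 6 genes with the ERSE and 0.890 for 6 genes with a window and no ERSE. Some values, such as that of Ern1, depended on the 4 libraries. Atf6 was at -0.164 over 14 libraries and 0.680 over 10, Sel1l at 0.581 over 14 and 0.911 over 10, and Xbp1 at 0.720 over 14 and 0.545 over 10.

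Single libraries carried much of the spread. PBS replicate 3 was the lowest of the 14 for 17 of the 38 tested members, B. thetaiotaomicron replicate 3 for 10 and PBS replicate 4 for 5. B. thetaiotaomicron replicate 2 was the highest for 14 members. A few genes ran the other way: among the B. thetaiotaomicron samples replicate 3 was the highest for Atf6, Ern1 and Derl1, and among the PBS samples replicate 3 was the highest for Atf6.

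**Figure D5:**
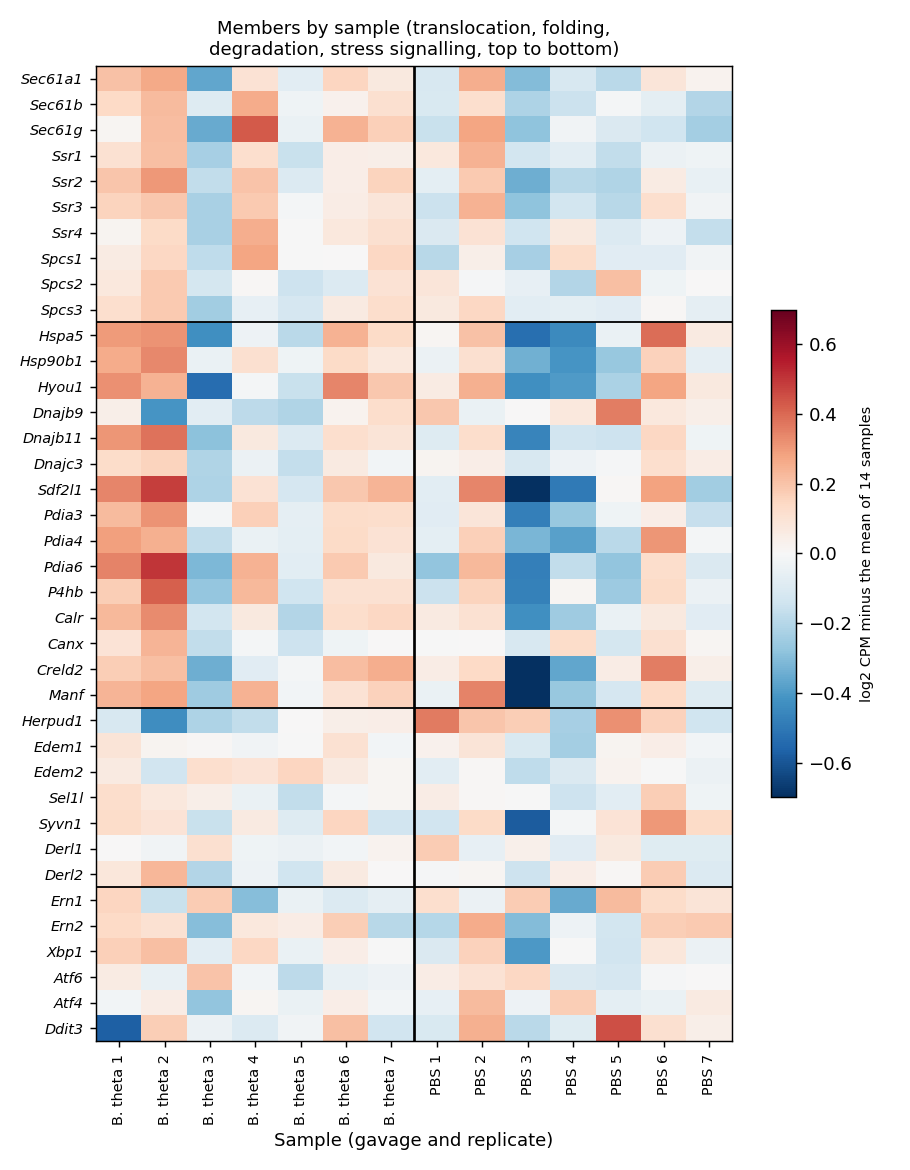
Log2 CPM of each tested ER gene minus its mean over the 14 samples, with the 7 B. thetaiotaomicron samples on the left and the 7 PBS samples on the right, by role. PBS replicate 3 and B. thetaiotaomicron replicate 3 are low across most folding and translocation genes, and B. thetaiotaomicron replicate 2 is high, while Herpud1 and Dnajb9 follow another pattern.

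Muc2, the main gel-forming mucin of goblet cells, separated the samples. It was at 1406 to 5443 CPM in the B. thetaiotaomicron group and 909 to 4687 CPM in the PBS group, with 5 samples under 2151 CPM and 9 above 3433 CPM. The samples under 2151 CPM were B. thetaiotaomicron replicates 3 and 7 and PBS replicates 1, 3 and 5. The same 5 had the lowest Ern2, at 74.8 and 80.4 CPM after B. thetaiotaomicron and 74.5 to 84.1 CPM after PBS. They also had the highest Hoxb13, at 375 and 263 CPM after B. thetaiotaomicron and 408 to 469 CPM after PBS. Hoxb13 in the other 9 samples was at most 125 CPM. The part of colon position in these clusters was not tested. Because of these clusters no coefficient over all samples is given for Ern2 and Muc2 or for Xbp1 and Muc2. Over the 10 libraries Ern2 and Muc2 correlated at r = 0.627 (permutation p = 0.0658, 0.263 after adjustment over 12 pairs) and rho = 0.261 (permutation p = 0.471), and r was -0.0304 without the 2 samples farthest from the Muc2 median. Xbp1 and Muc2 stood at r = 0.374 over the 10 libraries (permutation p = 0.308, adjusted 0.617). Xbp1 and Jchain, the joining chain of IgA in plasma cells, correlated over 14 samples at r = 0.304 (permutation p = 0.292, adjusted 0.389) and rho = 0.209 (permutation p = 0.474).

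No marker of the plasma cell, goblet, epithelial, macrophage, fibroblast, smooth muscle, colonocyte or distal hindgut lists was called with edgeR. Counts below at an unadjusted p under 0.05 stand beside shares over all genes of 7.98% (higher after B. thetaiotaomicron) and 7.26% (lower). Of 11 plasma cell markers, 10 were tested, 9 had positive log2 fold changes and 6 were higher with an unadjusted edgeR p under 0.05, with a median log2 fold change of 0.30. None of the 11 was at 0 in all libraries, and their summed level was 2303 to 3032 CPM in the B. thetaiotaomicron group and 1943 to 2757 CPM in the PBS group. A mean log2 CPM was taken over 10 of them, with Xbp1 left out. It still holds the ER genes Derl3 and Fkbp11, which are also on the further degradation and folding lists below. This mean was 4.29 ± 0.15 in the B. thetaiotaomicron group and 3.97 ± 0.21 in the PBS group (SD, n = 7 each). With this mean as a covariate, the log2 fold change of Pdia3 was 0.18 ± 0.12 and that of Herpud1 was -0.12 ± 0.13, and 22 of 38 members were positive. Pdia6 was at 0.10 ± 0.16, Sec61g at 0.08 ± 0.15, Ssr2 at 0.09 ± 0.12 and Spcs1 at 0.04 ± 0.10 in the same fit. In it 0 members had an unadjusted p under 0.05. Over all 14070 genes the number with such a p also fell, from 2145 without the covariate to 546 with it. Of 13 goblet markers 10 were positive and 1 in each direction had an unadjusted p under 0.05, with a median of 0.15 and a summed level of 14121 to 19874 CPM after B. thetaiotaomicron and 10718 to 20349 CPM after PBS. With the goblet mean as a covariate, Pdia3 was at 0.21 ± 0.08 and Herpud1 at -0.25 ± 0.11. Of 8 epithelial markers 7 were positive and 5 of them had an unadjusted p under 0.05, and of 8 macrophage markers 8 were positive and 4 of them had an unadjusted p under 0.05. Of 6 fibroblast markers 5 were negative and 1 of them had an unadjusted p under 0.05, with a median of -0.14. Of 7 smooth muscle markers 6 were negative (median -0.07), and of 8 colonocyte markers 5 were negative (median -0.10). None of the smooth muscle or colonocyte markers had such a p. Of 5 tested Hox markers of the distal hindgut 4 were negative and 2 of them had such a p. The part of the epithelial, macrophage, fibroblast, smooth muscle and colonocyte markers in these results was not tested.

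The wider pathway gave the same count of calls. In 7 further lists 0 genes were called with edgeR. The counts at an unadjusted p under 0.05 that follow stand beside shares of 7.98% (higher) and 7.26% (lower) over all genes. Among 14 other translocation genes 1 passed in each direction. Among 11 tested oligosaccharyltransferase genes 2 were higher and 0 lower, among 22 other folding genes 1 and 1, among 19 other degradation genes 1 and 0, among 20 other stress signalling genes 2 and 0, among 20 ATF4 target genes 6 and 2, and among 21 ER-to-Golgi transport genes 0 and 1. Their median log2 fold changes were 0.04, 0.14, 0.06, -0.01, 0.04, 0.19 and 0.07 in the same order.

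Derl3, a derlin of secretory cells that is also on the plasma cell list, averaged 10.3 ± 1.18 CPM in the B. thetaiotaomicron group and 7.93 ± 1.51 CPM in the PBS group (log2 fold change 0.38 ± 0.12, edgeR adjusted p = 0.159). Creb3l1, a membrane-bound transcription factor, averaged 229.8 ± 19 CPM after B. thetaiotaomicron and 193 ± 24.6 CPM after PBS (0.25 ± 0.08, edgeR adjusted p = 0.161). Wars, the cytosolic tryptophanyl-tRNA synthetase, averaged 228 ± 30.1 and 179.7 ± 36.2 CPM in that order of groups (0.34 ± 0.12, edgeR adjusted p = 0.190). Wars is also a known interferon target. On the negative side, the oxidase Ero1a, which reoxidises disulfide isomerases, averaged 75.7 ± 6.92 CPM in the B. thetaiotaomicron group and 93.7 ± 21.5 CPM in the PBS group (-0.31 ± 0.12, edgeR adjusted p = 0.249). Cebpg averaged 105 ± 7.44 CPM after B. thetaiotaomicron and 118 ± 10.3 CPM after PBS (-0.17 ± 0.06, edgeR adjusted p = 0.205).

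The other genes taken from each list were also uncalled. Krtcap2 and Rpn1, subunits of the glycan-adding oligosaccharyltransferase, had log2 fold changes of 0.22 ± 0.08 and 0.23 ± 0.10 (edgeR adjusted p of 0.223 and 0.288). Sec11c, a catalytic subunit of signal peptidase, was at 0.19 ± 0.08 and the Sec61 partner Sec62 at -0.09 ± 0.04. Fkbp11, a prolyl isomerase abundant in plasma cells, was at 0.62 ± 0.28 with 9.37 ± 2.05 CPM in the B. thetaiotaomicron group and 6.11 ± 3.11 CPM in the PBS group (edgeR adjusted p = 0.304). The pro-apoptotic Bak1 was at 0.21 ± 0.09, and the transport genes Sec24a and Tmed9 at -0.13 ± 0.05 and 0.16 ± 0.08.

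Some member counts may hold reads of other genes. Of the 39 members 17 overlap another annotated gene on GENCODE M21, 15 of them a gene on the opposite strand, and the sources used here do not say whether counting used strand. Of the 6 members with an unadjusted p under 0.05, 5 overlap another gene and Sec61b does not. Pdia3 overlaps Catsper2 and Pdia6 overlaps Atp6v1c2, which also have rows in the count table, while the genes that overlap Hsp90b1, Herpud1 and Dnajb9 have none. Calr and Spcs2 have named pseudogenes.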

How the data were processed

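Sequencing libraries of 14 mouse colon samples were built with a SMARTER mRNA kit, per the labels' protocols. The authors deposited a table of raw counts by gene, per the file headers. Beside them it has FPKM values from the authors, per the file headers, which can be rebuilt from count, gene length and library total (within 0.1% in 14 of 14 samples) and served only to compare levels between genes. GRCm38 and mm10 are the builds named in the submitters' processing notes. Aligner and counter: not given in the sources used here. The table's coordinates differ from GENCODE M21 on GRCm38, so positions were taken from GENCODE M21 by identifier. Groups came from titles and replicate numbers from library names, and the batch label is the same in all samples. No 2 libraries of a group agreed within sampling noise.

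Counts were filtered with filterByExpr (minimum count 10, minimum total 15), scaled by TMM and tested in R 4.3.3 by the robust quasi-likelihood F test of edgeR 4.0.16. Benjamini-Hochberg adjustment ran over 14070 genes, with a threshold of 0.05. CPM used TMM-scaled library sizes, and log2 CPM a prior count of 2. A standard error is the size of the log2 fold change over the root of its F value. For single genes a two-sided exact permutation test used all 3432 arrangements. Alternatives used DESeq2 1.42.0, limma 3.58.1, other scalings, filters, covariates and sample sets. The test was checked on simulated counts.

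Members and lists were chosen with earlier results of these data known. Named genes are the 12 members with the smallest p, Hspa5, Xbp1, Ern1, Ern2, Atf4, Ddit3, Sec61a1 and Sel1l, and the 2 genes with the smallest p from each further list. From the further lists, 1 gene that the rule picks is not reported here. Other members are given by their fold change, and any further gene was picked with its values known. A second Ddit3 row with 0 counts was left out. Promoter sequences are from RefSeq.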

Additional observations from a re-analysis of the deposited data

Results flagged for a closer look

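In 3 of the 76 groups of 7 samples examined (38 genes in each of the 2 groups) 1 sample lay far from the other 6, and chance flags about 1 in 20 such groups. Atf4 was at 132 CPM in B. thetaiotaomicron replicate 3, under the next lowest sample of that group at 155 CPM. Derl1 was at 135 CPM in the same library, above the next highest sample of that group at 126 CPM. Sec61g was at 28.5 CPM in PBS replicate 2, above the next highest PBS sample at 23.0 CPM.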

How the results depend on the processing

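In all 28 alternatives 0 members were called, but in several of them 0 genes of any kind were called, as given below. The number of members with an unadjusted p under 0.05 and a higher level after B. thetaiotaomicron, 4 as reported, was 7 with limma-voom and sample weights, 0 with the plasma cell mean as a covariate and 2 over 10 libraries, and 2 to 10 when 1 library was left out. The number with a lower level, 2 as reported, was 1 with sample weights, 0 with the plasma cell covariate and 0 over 10 libraries, and 0 to 2 when 1 library was left out. With the replicate number as a block, 14 members were higher and 2 lower at an unadjusted p under 0.05. In that fit 2550 of all 14070 genes had such a p, in either direction. The all-gene number was 2145 as reported, 2584 with sample weights, 546 with the plasma cell covariate and 1481 of 14230 over 10 libraries. When 1 library was left out it ran from 1684 (B. thetaiotaomicron replicate 4) to 2626 (PBS replicate 2). The titles do not say that replicate numbers pair the samples. Same-numbered samples correlated at -0.260 to 0.602, and 1 of 7 matched its own number best. These correlations also carry differences such as those along the first principal component. They therefore cannot show whether same-numbered samples share an origin. Class medians moved by less than 1 SD between samples: over all alternatives they ran from 0.0430 to 0.162 for translocation, 0.0613 to 0.202 for folding, -0.0080 to 0.0359 for degradation and -0.0981 to -0.0131 for stress signalling. All genes called numbered 35 as reported, 447 with DESeq2, 139 with sample weights, 15 with the block, 0 with the goblet or plasma cell covariate and 121 without PBS replicate 2. They also numbered 0 over 10 libraries, and 0 when PBS replicate 5, 6 or 7 or B. thetaiotaomicron replicate 1, 2, 4 or 6 was left out. Without PBS replicate 1 or 3 they numbered 1. Where 0 genes were called in all, no member could be called, so such settings say nothing of the members.

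Xbp1 turned to -0.0016 and Sec61a1 to -0.0053 with the plasma cell covariate. Ern2 was at -0.0739, -0.0533 and -0.135 with the distal hindgut, goblet and plasma cell covariates, -0.0821 over 10 libraries and between -0.0332 and 0.0568 when 1 library was left out. Sel1l was at -0.0097 with sample weights, -0.0213 with the plasma cell covariate, -0.0023 over 10 libraries and between -0.0180 and 0.0359 when 1 library was left out. Over 10 libraries r no longer passed adjustment for Ern2 and Muc2 (0.627) and Xbp1 and Muc2 (0.374), and turned sign for Ern2 and Hoxb13 (0.237, against -0.384 over 14) and Hspa5 and Muc2 (-0.0748, against 0.495 over 14). Without the 2 samples farthest in Hoxb13, the 10-library r of Ern2 and Hoxb13 was -0.323. The cause was not tested. Depth left Trib3, with 4 to 18 counts per library, untested in the full set.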
